A study of Mus musculus with 5 samples.

Results

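The genes of MHC class I antigen presentation were followed through the cells of mouse flank tumours. The members are 10 genes picked by symbol, of 32285 genes in the deposited count matrices: the heavy chains H2-K1 and H2-D1, the light chain gene B2m, the peptide transporter genes Tap1 and Tap2, the loading factor Tapbp, the inducible proteasome subunits Psmb8 and Psmb9, the transactivator Nlrc5 and the peptide-trimming enzyme Erap1. The rule names the genes and sets no threshold on a measured value, but they were picked with earlier results of these data known. Each symbol matched 1 gene, and all 10 were detected.

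The study set tumours of Lewis lung carcinoma cells carrying a guide RNA for JAG2 (JAG2KO, 2 libraries) against tumours of the same line carrying a Scramble guide (3 libraries). Lewis lung carcinoma, or LLC, is a transplantable mouse lung tumour line. Its cells were injected into mouse flanks, and tumours taken at endpoint were dissociated with Liberase and sorted for live CD45-positive cells before droplet capture with a 10x 3′ kit. The edit was carried by the injected cells, and the host mice have no allele or agent named in the sources used here. Strain, age and whether the line was 1 clone or a pool are not given in those sources, nor is it said that each library came from its own mouse, so p-values measure the spread between these libraries.

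Class I molecules show peptides from a cell's own proteins to CD8 T cells. Proteasomes cut the proteins, the Tap1 and Tap2 transporter carries the fragments into the endoplasmic reticulum, Erap1 trims them, and Tapbp (tapasin) helps to load them onto a heavy chain paired with B2m. Interferon gamma raises most of these genes, in part through Irf1, exchanges catalytic proteasome subunits for Psmb8 and Psmb9, and induces Nlrc5, which acts at the promoters of class I genes. LLC cells are known for low surface class I that interferon gamma can raise.

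H2-K1 (chr17:33996012-34000619), H2-D1 (chr17:35263094-35267497), Tap1 (chr17:34187556-34197225), Tap2 (chr17:34204479-34216321), Tapbp (chr17:33919478-33929290), Psmb8 (chr17:34198195-34201454) and Psmb9 (chr17:34182030-34187330) lie on chromosome 17 in the GRCm38 annotation. B2m lies at chr2:122147687-122153082, Nlrc5 at chr8:94434335-94527272 and Erap1 at chr13:74639573-74693205. Promoter windows from RefSeq (GRCm38.p6) matched 8 of the 10 members, all but Tap2 and Nlrc5. The 200 bases before the RefSeq start of both heavy chains and of B2m are printed because these 3 genes code for the chains of the molecule itself and, between them, hold 3 known kinds of element. H2-K1 is at chr17:34000348-34000547 on the minus strand, H2-D1 at chr17:35262894-35263093 on the plus strand and B2m at chr2:122147487-122147686 on the plus strand. The RefSeq start of H2-K1 lies inside the longer gene span given above, so its window does too. Capitals mark, from left to right in the heavy chain windows, the NF-kB motif GGGNNTTCC, the interferon regulatory factor core AANNGAAA (here on the other strand), and TGACG followed after 10 to 30 bases by ATTGG, the letters of the X2 and Y boxes.
H2-K1: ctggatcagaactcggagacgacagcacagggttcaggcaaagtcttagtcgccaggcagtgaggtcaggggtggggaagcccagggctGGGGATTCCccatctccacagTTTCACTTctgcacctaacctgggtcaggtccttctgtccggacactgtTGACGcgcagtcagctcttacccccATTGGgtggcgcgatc
H2-D1: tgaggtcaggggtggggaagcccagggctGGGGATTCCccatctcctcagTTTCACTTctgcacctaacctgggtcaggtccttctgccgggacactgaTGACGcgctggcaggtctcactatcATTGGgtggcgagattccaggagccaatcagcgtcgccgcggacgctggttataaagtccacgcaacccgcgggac
B2m: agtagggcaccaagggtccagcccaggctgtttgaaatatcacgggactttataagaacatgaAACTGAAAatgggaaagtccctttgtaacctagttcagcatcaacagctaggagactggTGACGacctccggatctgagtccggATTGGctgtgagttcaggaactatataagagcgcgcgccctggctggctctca

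Both strands were searched, and no capitals overlap. Both heavy chain windows held all 3 kinds, and the B2m window held the interferon regulatory factor core and the X2 and Y letters. None of the 3 was found in the windows of Tap1, Tapbp, Psmb8, Psmb9 or Erap1, which says only that these letters are not in those windows. Over 27025 RefSeq mouse promoters of the same length, 17.2% held the interferon regulatory factor core, 4.05% the NF-kB motif and 0.651% the X2 and Y letters. Tap1 and Psmb9 are transcribed away from each other, with starts 226 bases apart.

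The libraries held 12706 and 21854 barcodes for JAG2KO and 11063, 12391 and 10262 for Scramble, with 111680641 and 88782432 UMIs for JAG2KO and 93688591, 103246847 and 84788907 for Scramble. A UMI is 1 counted RNA molecule. The second JAG2KO library stood apart: its kept cells had a median of 2078 UMIs, against 7565 to 8443 in the other 4 libraries. Values without it are given for the members' differences between the groups in tumour-like cells and macrophages. Between 26 and 74 cell barcodes were shared by each pair of libraries, at most 0.633% of the smaller library. Cells were assigned to classes by marker UMIs, with no class I gene among the markers, and 23629 of 53050 kept cells passed no gate. Levels below are UMIs per 1000000 UMIs of a class summed within 1 library (CPM). The last 500 bases of the longest protein-coding transcript of each of the 10 members were split into 90-base words. Of these, 0% occurred exactly in another gene. Other transcript ends and near-identical sequence were not searched.

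Tumour-like cells were gated on at least 2 UMIs of Rhox5, a homeobox gene, and fewer than 10 UMIs per 10000 from 5 genes of blood-derived cells. There were 159 and 109 such cells in the JAG2KO libraries and 57, 88 and 71 in the Scramble libraries, 484 in all, that had come through the CD45 sort. Ptprc, the gene of CD45, stood at 15.1 and 12.8 CPM in JAG2KO tumour-like cells and at 10.1, 18.6 and 8.75 CPM in Scramble tumour-like cells, against 423 to 556 CPM in macrophages of the 5 libraries. All 7 tumour markers were detected, and keratin 18 (Krt18), which the gate did not use, stood at 347 and 193 CPM in JAG2KO and at 171, 199 and 217 CPM in Scramble. The same cells also held all 6 fibroblast markers, summing to 2966 and 3910 CPM in JAG2KO and to 4543, 5166 and 4103 CPM in Scramble, so they are called tumour-like only by the gate. Jag2 itself gave 3 and 0 UMIs in JAG2KO tumour-like cells and 1, 3 and 3 UMIs in Scramble tumour-like cells, which is too few to check the labels, and a 3′ count need not change after a guide-directed cut.

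Macrophages, gated on complement C1q genes and at least 5000 UMIs, made up 4851 and 4084 cells in JAG2KO and 4663, 4925 and 3673 in Scramble. Further classes with sums in at least 1 library of 20 or more cells were monocytes, neutrophils, type 1 and type 2 conventional dendritic cells (cDC1, cDC2), migratory dendritic cells, CD8 T cells, CD4 T cells, NK cells and mast cells or basophils, 11 classes in all. No class was expected to lack class I RNA, so none gives a background level of free RNA for these genes. Free RNA of macrophages was instead followed through C1q, whose level in tumour-like cells was 1.45% and 0.796% of the macrophage level in JAG2KO and 1.62%, 2.16% and 1.55% in Scramble.

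Every class expressed the heavy chains and B2m, and the order of the classes was steep. H2-K1 was highest in CD4 T cells, at 3517 ± 316 CPM (SD, n = 5), followed by CD8 T cells at 2535 ± 500.1 CPM (n = 2, both JAG2KO), NK cells at 2330 ± 227 CPM (n = 4) and migratory dendritic cells at 2050 ± 195 CPM (n = 3). CD4 T cells did not overlap with the next class over libraries, whereas the ranges of CD8 T cells and NK cells overlapped. In the middle stood cDC2 at 1219 ± 99.2 CPM, monocytes at 1120 ± 77.2 CPM, macrophages at 916 ± 214 CPM, cDC1 at 840 ± 79.4 CPM, mast cells or basophils at 630.1 ± 19.4 CPM and neutrophils at 604 ± 117 CPM. Tumour-like cells came last at 132 ± 67.0 CPM (n = 5), and their highest library lay below the lowest neutrophil library. These spreads run over both groups together.

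**Figure D1:**
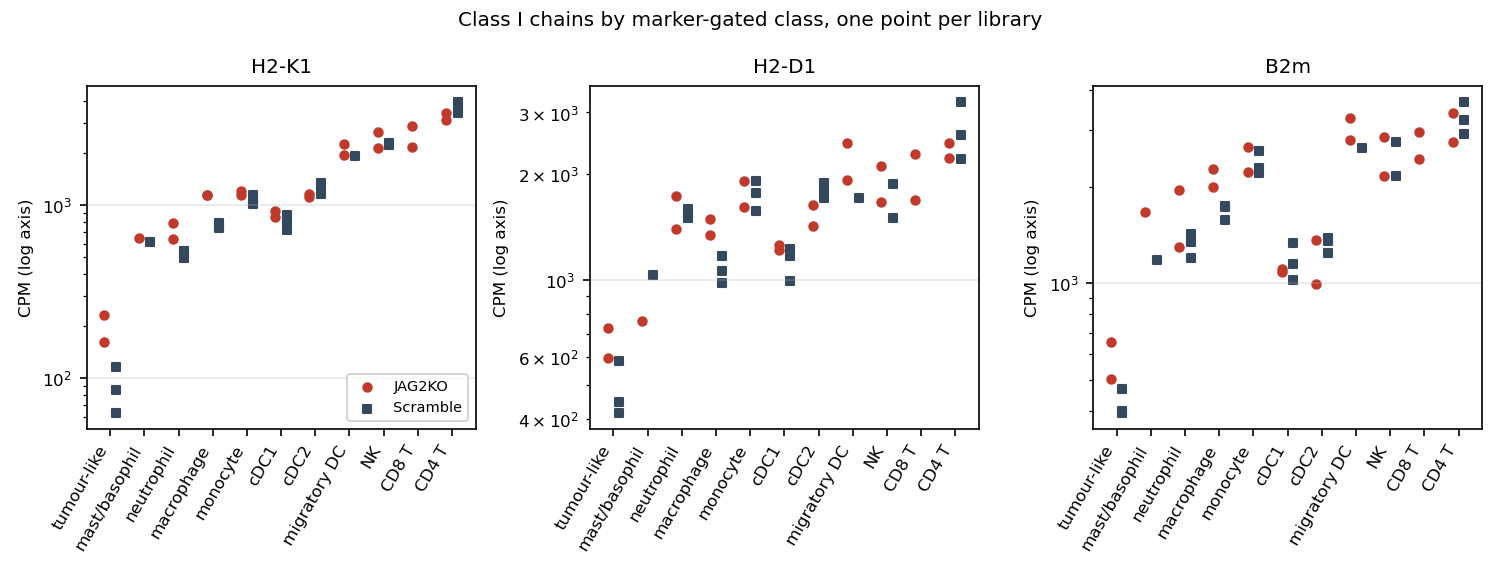
H2-K1, H2-D1 and B2m in UMIs per 1000000 (CPM, log axis) for 11 cell classes, 1 point per library (JAG2KO circles, Scramble squares). T cells and NK cells stand at the top for H2-K1, and tumour-like cells are lowest for all 3 genes, at means of 132, 555 and 484 CPM.

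The other chains kept tumour-like cells at the bottom and CD4 T cells at the top by mean. For both, CD4 T cells overlapped over libraries with the next class, migratory dendritic cells. H2-D1 averaged 555 ± 126 CPM in tumour-like cells and 2539.6 ± 413 CPM in CD4 T cells (SD, n = 5 each). B2m, the light chain that every class I molecule needs, averaged 484 ± 106 CPM in tumour-like cells and 3196 ± 372 CPM in CD4 T cells. Tumour-like cells were lowest of 11 classes for 7 of 10 members and ranked between 9 and 11 for all 10. Neutrophils were lowest for Erap1, and mast cells or basophils for Tapbp and for Nlrc5, which had 0 UMIs in both libraries with at least 20 such cells (exact 95% upper limits of 27.3 CPM in JAG2KO 1 and 39.2 CPM in Scramble 1).

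Of the 7 other members, 5 peaked in dendritic cells, while Tap2 was highest in CD4 T cells and Erap1 in NK cells. Type 1 conventional dendritic cells, the class known for presenting taken-up antigen to CD8 T cells, had the highest levels of Psmb8 (1202 ± 68.4 CPM), Psmb9 (638 ± 40.7 CPM) and Tap1 (316 ± 16.01 CPM), although their H2-K1 overlapped that of macrophages over libraries. Tap1 of cDC1 and of CD4 T cells (309 ± 80.7 CPM) overlapped over libraries, as did Tap2 of CD4 T cells (178 ± 29.2 CPM) and of cDC1 (172 ± 33.7 CPM). Migratory dendritic cells were highest for Tapbp, at 313 ± 34.6 CPM, and for Nlrc5, at 112 ± 25.5 CPM. Both ranges overlapped with the next class, as did Psmb8 of cDC1 with that of migratory dendritic cells. NK cells were highest for Erap1, at 60.3 ± 23.8 CPM, within the spread of the classes below them. CD4 T cells were highest for 4 members, cDC1 for 3, migratory dendritic cells for 2 and NK cells for 1. Without the second JAG2KO library the highest class stayed for 7 of 10 members and changed for Tap1 (CD4 T cells), Tap2 (cDC1) and Nlrc5 (CD8 T cells, 1 library), and the lowest class stayed for all 10.

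The order of the classes differed between the 10 genes: cDC1 ranked between 1 and 10 and NK cells between 1 and 7, whereas CD4 T cells ranked between 1 and 4. Over 46 sums of 11 classes by library, Tap1 was most like the mean of the other 9 members, with a Pearson r of 0.97 on log2(CPM + 1), and Erap1 least, with 0.51. Of 8218 other genes with a mean of at least 10 CPM, those most like the mean of the members included Coro2a (0.92), the class I heavy chain H2-Q7 (0.92), Arhgap30 (0.91), Kif21b (0.91), Sp110 (0.90), Phf11b (0.90), H2-Q6 (0.90), Itga4 (0.89) and St8sia4 (0.89). Without tumour-like cells these values ranged between 0.77 and 0.86. The sums share libraries and depth, so these values are a description of the class order.

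As a share of UMIs, all 10 members were lower in tumour-like cells than in macrophages of the same libraries. The inducible proteasome subunits, Tap1 and H2-K1 differed most, and Tap2, Tapbp and Erap1 least. Of 13905 genes tested, 74.3% were called, 35.3% higher and 38.9% lower, so a lower call alone sets no gene apart. The members' median log2 difference was -2.12, against -0.04 over all genes tested. Median depths were 24790 to 45351 UMIs in tumour-like cells and 7676.5 to 11854 UMIs in macrophages over libraries. A lower share therefore need not mean fewer UMIs per cell. H2-D1 gave more UMIs per cell in tumour-like cells than in macrophages in every library, and H2-K1 fewer. In JAG2KO 1, H2-D1 gave 3970 UMIs in 159 tumour-like cells and 87638 UMIs in 4851 macrophages.

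**Figure D2:**
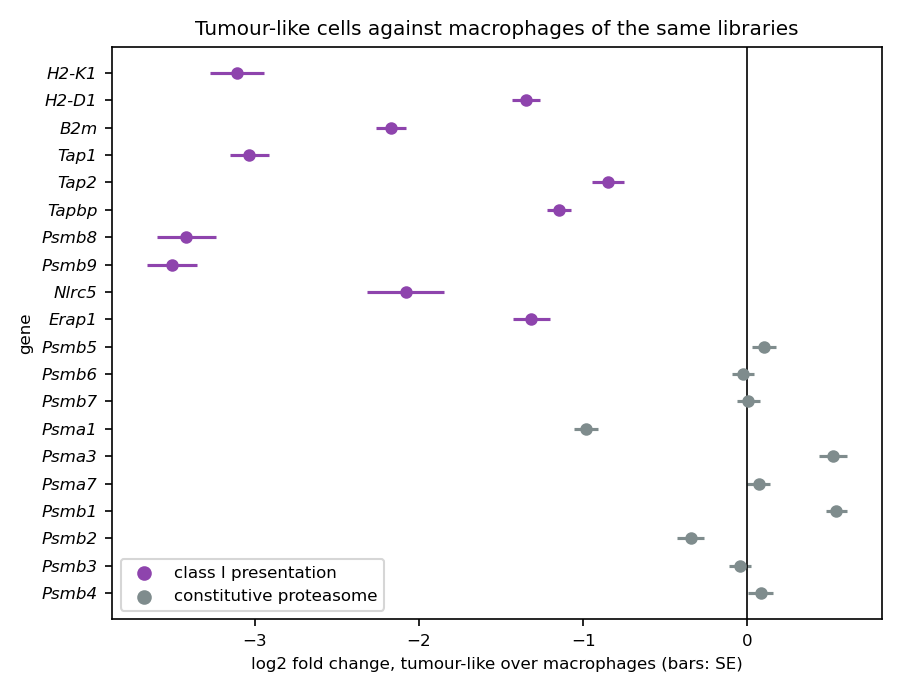
Log2 difference (± SE) between tumour-like cells and macrophages of the same 5 libraries, for the 10 members and 10 constitutive proteasome genes. All members lie below 0, with Psmb9 lowest at -3.50, whereas the constitutive genes have a median of 0.04.

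H2-K1 had 163 and 231 CPM in JAG2KO tumour-like cells and 63.0, 116 and 85.9 CPM in Scramble tumour-like cells, against 1153 and 1145 CPM in JAG2KO macrophages and 748, 790.4 and 741 CPM in Scramble macrophages. The classes did not overlap in any library, and the fitted difference was -3.11 ± 0.16 (log2 ± SE), 8.62 times lower (adjusted p = 3.27e-07, edgeR quasi-likelihood test with library as a block and Benjamini-Hochberg adjustment). H2-D1 was 2.54 times lower in tumour-like cells (-1.35 ± 0.08, adjusted p = 8.77e-07) and B2m 4.50 times lower (-2.17 ± 0.09, adjusted p = 9.91e-08). The heavy chains therefore stood in another balance. H2-K1 gave 21.4% and 24.1% of the H2-K1 and H2-D1 UMIs in JAG2KO tumour-like cells and 13.1%, 16.6% and 16.1% in Scramble tumour-like cells, against 40.4% to 46.0% in macrophages and 55.0% to 60.8% in T and NK cells. Neutrophils came nearest to tumour-like cells, at 24.9% to 31.5%. The share says how the 2 counts stand to each other and is compared only between classes.

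In the peptide supply, Psmb8 was 10.7 times lower in tumour-like cells than in macrophages (-3.42 ± 0.18, adjusted p = 3.29e-07) and Psmb9 11.3 times lower (-3.50 ± 0.15, adjusted p = 1.06e-07). The third inducible subunit gene, Psmb10, was lower by less (-1.03 ± 0.07, adjusted p = 1.50e-06). The constitutive counterparts of these 3 were not called: Psmb5, which Psmb8 replaces, differed by 0.10 ± 0.07 (adjusted p = 0.232), Psmb6, which Psmb9 replaces, by -0.03, and Psmb7 by 0.00. Of 10 constitutive proteasome genes, 2 were called higher (Psmb1 at 0.54 and Psma3 at 0.52) and 2 lower (Psma1 at -0.98 and Psmb2 at -0.35), with a median of 0.04. Psmb8 made up 7.96% and 19.2% of Psmb8 and Psmb5 UMIs in JAG2KO tumour-like cells and 7.95%, 13.8% and 6.44% in Scramble tumour-like cells, against 52.4% to 60.7% in macrophages, 85.3% to 86.1% in cDC1 and 89.9% to 91.3% in migratory dendritic cells. Psmb9 made up 1.82% to 6.44% of Psmb9 and Psmb6 UMIs in tumour-like cells, against 21.9% to 32.5% in macrophages. Psmb10 made up 23.9% to 32.6% of Psmb10 and Psmb7 UMIs in tumour-like cells, against 40.8% to 47.6% in macrophages, and that share overlapped with neutrophils (30.5% to 48.3%), cDC1 (31.3% to 43.2%) and mast cells or basophils (28.6% to 36.4%).

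**Figure D3:**
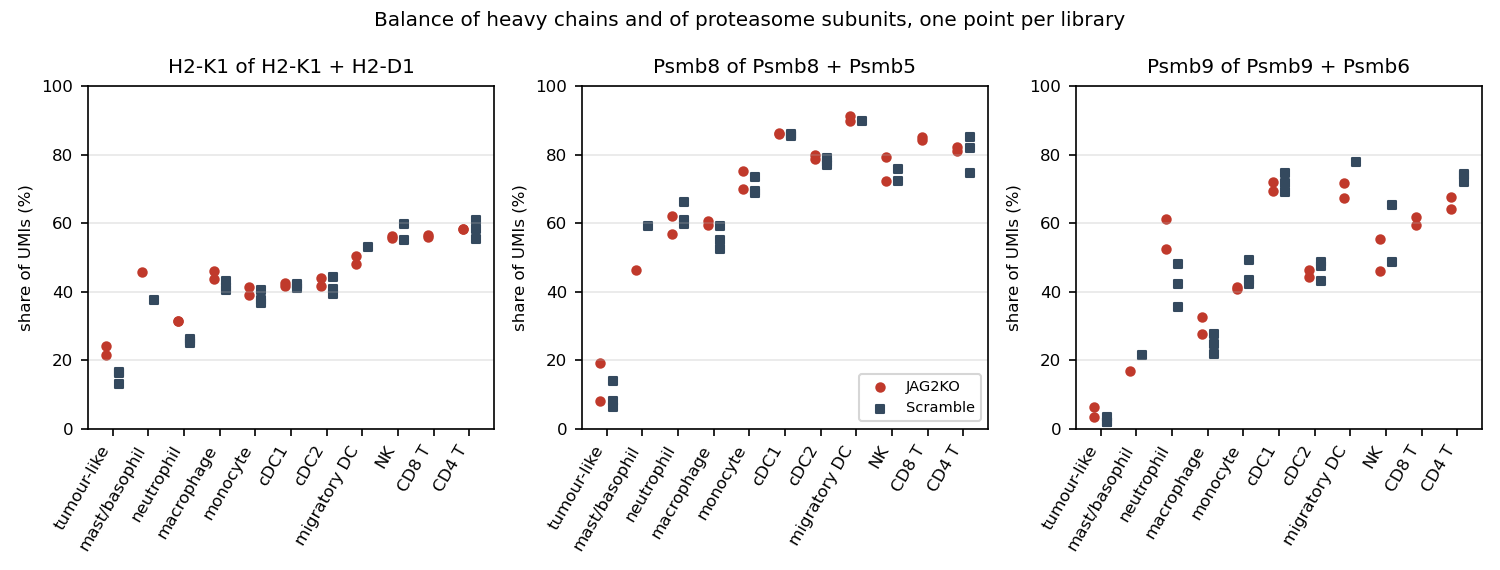
Shares of UMIs (%) by cell class, 1 point per library with at least 20 cells of the class: H2-K1 of H2-K1 and H2-D1, Psmb8 of Psmb8 and Psmb5, and Psmb9 of Psmb9 and Psmb6, with JAG2KO libraries left of Scramble libraries. Tumour-like cells lie lowest in these 3 panels, at 13.1% to 24.1%, 6.44% to 19.2% and 1.82% to 6.44%.

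Transport and loading genes differed by unequal amounts. Tap1 was 8.18 times lower in tumour-like cells than in macrophages (-3.03 ± 0.12, adjusted p = 6.70e-08), while Tap2, the other subunit of the same transporter, was 1.80 times lower (-0.85 ± 0.10, adjusted p = 4.57e-05). Tapbp was 2.21 times lower and Erap1 2.49 times lower. Nlrc5, the transactivator, had 6.32 and 5.01 CPM in JAG2KO tumour-like cells and 0.961, 3.45 and 2.82 CPM in Scramble tumour-like cells, against 14.4 and 18.9 CPM in JAG2KO macrophages and 10.0, 14.6 and 12.6 CPM in Scramble macrophages, 4.23 times lower (adjusted p = 4.26e-05). All 129 values of the members under other settings kept direction and call. The macrophage RNA share that C1q implies for H2-K1 in tumour-like cells was 3.94% to 19.3% of its UMIs.

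Related lists went along in part. Of 10 other class I heavy chains tested, 9 were lower in tumour-like cells (median -2.27), as were 7 of 8 loading and proteasome activator genes (median -0.56). Of 9 interferon gamma signalling genes, the receptor chains Ifngr1 (-2.14) and Ifngr2 (-2.24) were among 7 lower genes, whereas Irf1 (0.75) and the feedback inhibitor Socs1 (1.34) were higher. Of 12 other genes induced by interferon gamma, 11 were lower (median -2.43), among them Ciita (-4.98), the transactivator of class II genes. Cxcl10 was not called.

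Within tumour-like cells, H2-K1 was higher in JAG2KO than in Scramble, by 2.30 times, and was the only 1 of 10 members past the threshold. H2-D1 and B2m pointed the same way with smaller differences that missed it. The transporter, loading and proteasome members had no call. Of 10681 genes tested, 8.69% were called, 3.76% higher and 4.92% lower. DESeq2 called 3 members higher, H2-K1, H2-D1 and B2m, and its count over all genes is not given here. In edgeR, 6 members had an unadjusted p under 0.05, as did 2512 of the 10681 genes.

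H2-K1 averaged 197 ± 48.6 CPM in JAG2KO tumour-like cells (SD, n = 2) and 88.3 ± 26.6 CPM in Scramble tumour-like cells (n = 3). Its values of 163 and 231 CPM in JAG2KO lay above all of 63.0, 116 and 85.9 CPM in Scramble, with no overlap. The log2 fold change was 1.20 ± 0.22 (adjusted p = 0.00698, edgeR quasi-likelihood test with Benjamini-Hochberg adjustment over all genes). It stayed past the threshold in 13 of 13 alternatives, between 0.90 and 1.46, and without the second JAG2KO library it was 0.90 (adjusted p = 0.0497). Less the macrophage RNA that C1q implies, the lowest JAG2KO library stood at 145.9 CPM and the highest Scramble library at 98.95 CPM.

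**Figure D4:**
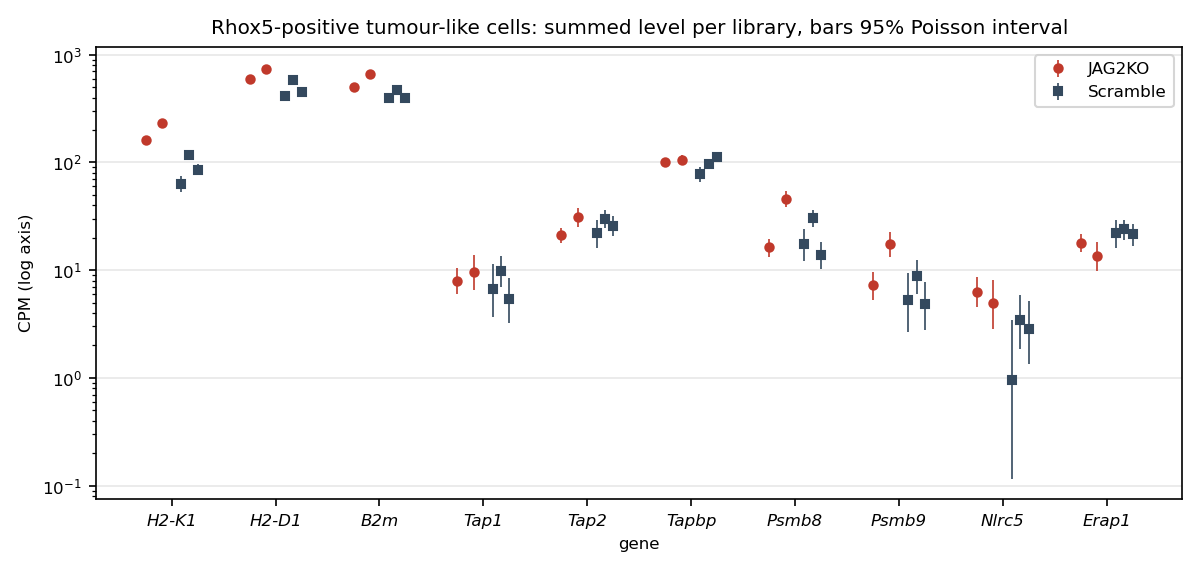
UMIs per 1000000 (CPM, log axis) of the 10 members in tumour-like cells of each library, JAG2KO left of Scramble, with exact 95% Poisson intervals for counting error. H2-K1 lies at 163 and 231 CPM in JAG2KO, above all 3 Scramble libraries, while Tap2 and Tapbp overlap between the groups.

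H2-D1 had 598 and 729 CPM in JAG2KO tumour-like cells, against 416, 584 and 447 CPM in Scramble tumour-like cells. The groups did not overlap, but the nearest libraries lay close together, and the log2 difference of 0.52 ± 0.16 missed the threshold (adjusted p = 0.0652, edgeR) and was 0.35 without JAG2KO 2. B2m had 503 and 655 CPM in JAG2KO, against 393, 468 and 399.9 CPM in Scramble, with a log2 difference of 0.52 ± 0.15 (adjusted p = 0.0506, edgeR), which passed the threshold without JAG2KO 1, at 0.72, and was 0.30 without JAG2KO 2. Nlrc5 rested on 42 and 16 UMIs in JAG2KO and 2, 13 and 10 UMIs in Scramble. Its 6.32 and 5.01 CPM in JAG2KO lay above the 0.961, 3.45 and 2.82 CPM of Scramble (log2 1.20 ± 0.41, adjusted p = 0.104, and 1.31 without JAG2KO 2). Erap1 went the other way, with 17.9 and 13.5 CPM in JAG2KO below 22.1, 23.9 and 21.5 CPM in Scramble (log2 -0.43 ± 0.18, adjusted p = 0.177, and -0.29 without JAG2KO 2).

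Groups thus did not overlap for 5 of 10 members, 4 above and 1 below. Over all 10681 genes, JAG2KO lay wholly above Scramble for 15.4% and wholly below for 24.5%. The median log2 difference of the members was 0.52, against -0.00 over all genes.

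The peptide supply genes in tumour-like cells turned on 1 library. Psmb8 had 16.3 and 46.0 CPM in JAG2KO, against 17.3, 30.3 and 13.8 CPM in Scramble, and Psmb9 had 7.22 and 17.5 CPM in JAG2KO, against 5.29, 8.76 and 4.80 CPM in Scramble. The second JAG2KO library was highest for both, and the first lay within the Scramble range. Psmb8 differed by 0.56 ± 0.41 (adjusted p = 0.453, edgeR), and by -0.32 without that library. Psmb9 differed by 0.92 ± 0.41 (adjusted p = 0.203), and by 0.21 without it, whereas without the first JAG2KO library it was called, at 1.53. Tap1 had 7.98 and 9.70 CPM in JAG2KO, against 6.73, 9.83 and 5.37 CPM in Scramble (log2 0.29 ± 0.31), Tap2 differed by 0.01 ± 0.20 and Tapbp by 0.16 ± 0.15, and the groups overlapped for all 3. Without JAG2KO 2 these were 0.15 for Tap1, -0.28 for Tap2 and 0.10 for Tapbp.

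In single tumour-like cells, H2-K1 stood as in the sums. The median cell had 157 and 199 CPM of H2-K1 in JAG2KO, against 54.3, 95.1 and 74.8 CPM in Scramble. At least 1 H2-K1 UMI was found in 95.6% and 94.5% of JAG2KO tumour-like cells, against 73.7%, 88.6% and 85.9% of Scramble tumour-like cells, and in at least 99.4% of macrophages of every library. Median depths of tumour-like cells were 38633 and 24790 UMIs in JAG2KO and 30302, 36676.5 and 45351 UMIs in Scramble. With each cell thinned to 1000 UMIs the shares were 15.1% and 26.6% in JAG2KO and 5.26%, 20.7% and 11.3% in Scramble, and the groups overlapped. The exact 95% intervals of these thinned shares, 9.92% to 21.6% and 18.6% to 35.9% in JAG2KO and 1.10% to 14.6%, 12.7% to 30.7% and 4.99% to 21.0% in Scramble, cover counting error only.

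Within a library, cells rich in 1 chain tended to be rich in the others. Over tumour-like cells of at least 10000 UMIs, Spearman's rho of H2-D1 with B2m ranged between 0.56 and 0.77 over the 5 libraries, that of H2-K1 with H2-D1 between 0.42 and 0.68 and that of H2-K1 with B2m between 0.37 and 0.64. H2-K1 with Tap1 gave 0.02 to 0.18, and with Psmb9 0.05 to 0.38, genes with few UMIs per cell. Cells of 1 library share its depth and its free RNA, so these are descriptions, and H2-K1 with the UMIs per cell gave -0.25 to 0.11.

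Markers of other cell types were detected in the tumour-like sums. The 7 macrophage markers summed to 315 and 141 CPM in JAG2KO tumour-like cells, against 391, 551 and 324 CPM in Scramble tumour-like cells, with all 7 detected. Of 15 marker lists, 4 lay wholly above Scramble in JAG2KO and 7 wholly below. Above were the 6 CD8 T cell markers, at 3.76 and 5.63 CPM in JAG2KO, against 1.44, 1.59 and 0.282 CPM in Scramble, the 7 CD4 T cell markers, at 3.31 and 5.63 CPM in JAG2KO, against 1.44, 1.86 and 0.565 CPM in Scramble, the 5 cDC1 markers, at 31.8 and 32.9 CPM in JAG2KO, against 17.8, 20.5 and 17.5 CPM in Scramble, and the 4 cDC2 markers, at 4.36 and 2.50 CPM in JAG2KO, against 0.961, 2.12 and 1.41 CPM in Scramble. Below were the macrophage markers, the 6 migratory dendritic cell markers, at 37.0 and 38.2 CPM in JAG2KO, against 158, 169 and 167 CPM in Scramble, and the monocyte, neutrophil, mast cell or basophil, tumour and fibroblast lists. The 6 NK cell markers, of which 5 were detected and Ncr1 was at 0, summed to 0.903 and 2.50 CPM in JAG2KO, against 0.961, 0.266 and 0 CPM in Scramble. The CD8 and CD4 T cell lists share Cd3d, Cd3e, Cd3g and Trac, so here and below they are not separate observations. The cDC1 list holds Irf8, which had 7.53 and 16.9 CPM in JAG2KO tumour-like cells and 3.84, 6.11 and 7.91 CPM in Scramble tumour-like cells. In macrophages Irf8 stood at 199 to 222 CPM. The part of these markers in the H2-K1 difference was not tested.

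Among the related lists in tumour-like cells, 1 of 7 other heavy chains was higher in JAG2KO and 1 lower. H2-Q7, a non-classical heavy chain, had 7.07 and 12.2 CPM in JAG2KO, against 2.40, 5.05 and 2.54 CPM in Scramble (log2 1.48 ± 0.40, adjusted p = 0.0441, edgeR). H2-T23, a non-classical heavy chain seen by an inhibitory receptor of NK cells, had 14.3 and 16.9 CPM in JAG2KO, against 27.4, 30.3 and 22.03 CPM in Scramble (log2 -0.73 ± 0.20, adjusted p = 0.0423). Neither overlapped between groups, and the calls held in 6 and 7 of 13 alternatives. The H2-Q7 call was lost without JAG2KO 2 (1.06), Scramble 1 (1.35), Scramble 2 (1.93) or Scramble 3 (1.27), and the H2-T23 call without JAG2KO 1 (-0.56), JAG2KO 2 (-0.85), Scramble 1 (-0.70) or Scramble 2 (-0.63), all on the log2 scale. DESeq2 called neither (adjusted p = 0.0668 for H2-Q7 and 0.135 for H2-T23), H2-Q7 was also lost with stricter limits on mitochondrial UMIs (1.15) or gates (1.56), and H2-T23 with thinned sums (-0.68). H2-T23 is uncertain, since 13.4% of 90-base words from its last 500 bases occur in other genes.

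Genes known to answer to interferon gamma in tumour-like cells were called in part. Irf1, a transcription factor for class I genes, had 85.2 and 73.2 CPM in JAG2KO, against 32.2, 56.6 and 59.3 CPM in Scramble (log2 0.72 ± 0.20, adjusted p = 0.0478, edgeR). Socs1 had 24.4 and 22.8 CPM in JAG2KO, against 10.6, 15.7 and 14.7 CPM in Scramble (log2 0.82 ± 0.19, adjusted p = 0.0225). Each call held in 7 of 13 alternatives. Irf1 was lost without JAG2KO 1 (log2 0.62), JAG2KO 2 (0.79), Scramble 1 (0.53) or Scramble 2 (0.80), and Socs1 without JAG2KO 1 (0.79) or any 1 Scramble library (0.71 to 0.91). DESeq2 did not call Socs1 (adjusted p = 0.079), which was also lost with thinned sums (0.79), and Irf1 was lost with doublets kept (0.71) or a stricter gate (0.75). Cxcl10, a chemokine that draws T cells, had 148 and 172 CPM in JAG2KO, against 54.8, 95.6 and 99.1 CPM in Scramble (log2 0.99 ± 0.20, adjusted p = 0.0121), and was lost only without the second JAG2KO library, at 0.85 (adjusted p = 0.0687). Of 9 signalling genes 2 were higher (median 0.38), of 11 other induced genes 1 was higher (median 0.34), and none was lower. No loading gene of 8 (median -0.01) and no constitutive proteasome gene of 10 (median -0.03) was called by edgeR or DESeq2, and 1 of each list had an unadjusted p under 0.05 in edgeR.

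In macrophages the heavy chain H2-K1 was again the called member, 1.52 times higher in JAG2KO. H2-D1, B2m and the antigen transport genes lay higher in JAG2KO as well but were not called. Of 13943 genes tested, 2.69% were called, 1.26% higher and 1.43% lower. DESeq2 called H2-K1, H2-D1 and B2m, as it did in tumour-like cells.

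H2-K1 averaged 1149 ± 5.34 CPM in JAG2KO macrophages (SD, n = 2) and 760.0 ± 26.7 CPM in Scramble macrophages (n = 3), and the groups lay far apart. Its log2 fold change was 0.60 ± 0.10 (adjusted p = 0.0373, edgeR quasi-likelihood test with Benjamini-Hochberg adjustment). The size ranged between 0.56 and 0.64 over 14 alternatives, but the call held in 9 of them: it was lost without Scramble 1 (0.58, adjusted p = 0.109), Scramble 2 (0.63, adjusted p = 0.154), Scramble 3 (0.58, adjusted p = 0.0644) or JAG2KO 2 (0.56, adjusted p = 0.0679), and with macrophages of any depth (0.59, adjusted p = 0.0527). The share of macrophages with an H2-K1 UMI after thinning to 1000 UMIs was 64.6% and 65.2% in JAG2KO, against 52.9%, 53.2% and 50.3% in Scramble.

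**Figure D5:**
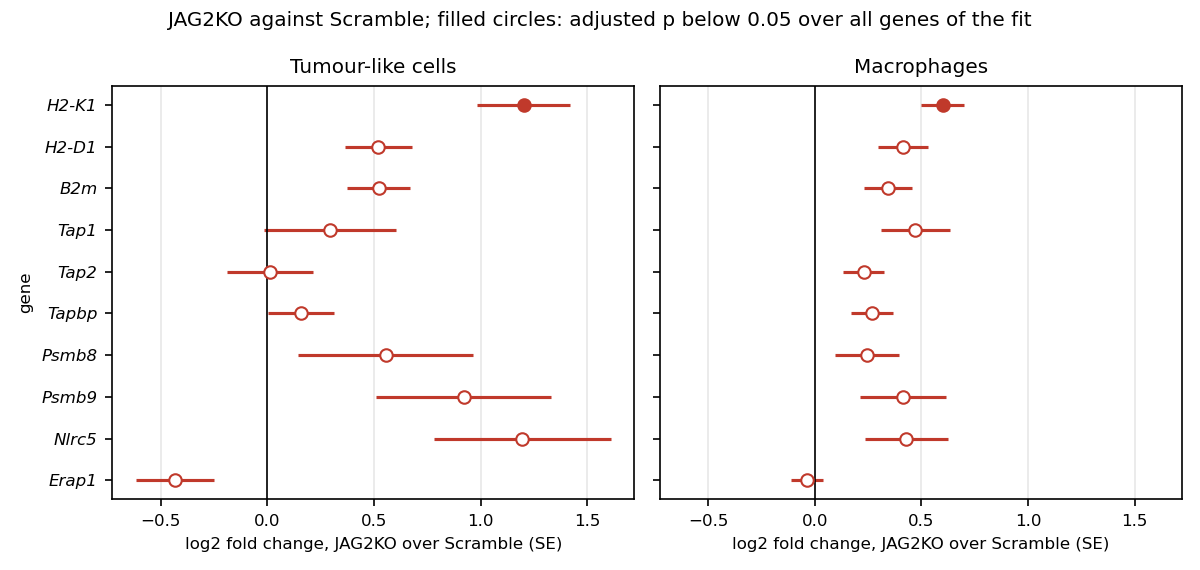
Log2 fold change (± SE) of JAG2KO against Scramble for the 10 members in tumour-like cells and in macrophages; filled points have an adjusted p below 0.05. H2-K1 is filled in both classes, at 1.20 and 0.60, and 9 of 10 members lie above 0 in each.

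H2-D1 had 1494 and 1343 CPM in JAG2KO macrophages, against 1059, 1165 and 977 CPM in Scramble macrophages (log2 0.41 ± 0.12, adjusted p = 0.108, edgeR). B2m had 2276 and 1989.6 CPM in JAG2KO, against 1730, 1736 and 1575 CPM in Scramble (log2 0.34 ± 0.11, adjusted p = 0.151). Tap1 had 63.5 and 69.3 CPM in JAG2KO, against 38.3, 56.1 and 49.5 CPM in Scramble (log2 0.47 ± 0.16, adjusted p = 0.172). None of these overlapped between the groups, and without JAG2KO 2 the differences were 0.45 for H2-D1, 0.40 for B2m and 0.36 for Tap1.

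In all, 6 of 10 members lay wholly above Scramble in JAG2KO macrophages (the 3 chains, Tap1, Tap2 and Tapbp), against 17.1% of all genes, and 0 lay below, against 17.5%. The members' median log2 difference was 0.38, against 0.00 over all genes. Psmb8 had 208 and 259 CPM in JAG2KO, against 187, 225 and 183 CPM in Scramble, and Psmb9 had 77.0 and 115 CPM in JAG2KO, against 63.6, 84.2 and 70.1 CPM in Scramble, with the second JAG2KO library highest for both and overlap between groups. Erap1 stood at 44.3 and 38.3 CPM in JAG2KO and at 43.4, 42.1 and 41.6 CPM in Scramble (log2 -0.04). Without JAG2KO 2 the differences were 0.16 for Tap2, 0.26 for Tapbp, 0.03 for Psmb8, 0.04 for Psmb9, 0.18 for Nlrc5 and 0.02 for Erap1.

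The related lists in macrophages had 2 calls. Irf1 had 49.4 and 40.5 CPM in JAG2KO macrophages, against 19.0, 26.7 and 24.5 CPM in Scramble macrophages (log2 0.94 ± 0.15, adjusted p = 0.0341, edgeR), and Socs1 had 9.44 and 6.99 CPM in JAG2KO, against 4.50, 4.79 and 4.61 CPM in Scramble (log2 0.83 ± 0.14, adjusted p = 0.038). Both calls were lost without JAG2KO 1 (log2 0.83 for Irf1 and 0.64 for Socs1), JAG2KO 2 (1.04 and 0.99), Scramble 1 (0.81 and 0.80) or Scramble 2 (1.04 and 0.85), and that of Irf1 also with macrophages of any depth (0.93). All 12 other interferon gamma induced genes had positive differences (median 0.81), of which edgeR called 0, with 10 at an unadjusted p under 0.05, and DESeq2 called 2, Gbp2 and Cd274. Over all 13943 genes tested in macrophages, 2669 had an unadjusted p under 0.05 in edgeR. Cd74 had 1227 and 3784 CPM in JAG2KO macrophages, against 615, 1252 and 1111 CPM in Scramble macrophages. Ciita had 23.9 and 82.4 CPM in JAG2KO, against 7.82, 22.8 and 21.1 CPM in Scramble. These 2 genes were thus high mainly in JAG2KO 2, whereas Gbp2 was high in both JAG2KO libraries, at 121 and 100.2 CPM. The median of this list without JAG2KO 2 is not given. Other heavy chains had a median of 0.35, and edgeR called 0 of 11, with 6 at an unadjusted p under 0.05. DESeq2 called 3 of them higher, H2-Q6, H2-Q7 and H2-M2. The last was high in 1 library, with 2.39 and 65.2 CPM in JAG2KO macrophages, against 0.562, 0.932 and 1.86 CPM in Scramble macrophages. Constitutive proteasome genes had a median of 0.03, with none called by either tool or below an unadjusted p of 0.05. Markers moved with these values, with 6 of 15 lists wholly above Scramble in JAG2KO (monocyte, cDC1, cDC2, CD8 T, CD4 T and NK cell) and 5 wholly below: the 6 monocyte markers summed to 521 and 746 CPM in JAG2KO macrophages, against 391.7, 459 and 509 CPM in Scramble macrophages, the 7 macrophage markers to 19926 and 17027 CPM in JAG2KO, against 21823, 23079.9 and 20206 CPM in Scramble, and the 6 CD8 T cell markers to 6.79 and 7.56 CPM in JAG2KO, against 1.87, 3.73 and 1.92 CPM in Scramble. Their part in the result was not tested.

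The effect of JAG2KO on H2-K1 was larger in tumour-like cells than in macrophages by 0.61 ± 0.21 on the log2 scale, which the test of that difference did not call (adjusted p = 0.123, edgeR, library as a block), and by 0.39 without JAG2KO 2. No member was called in that test, in which 4.57% of 13905 genes were. At an unadjusted p under 0.05 there were 3 members, against 2824 of the 13905 genes, and DESeq2 called 0 members. A difference between the classes in how the members answered was therefore not shown.

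In 6 further classes no member was called by edgeR or by DESeq2. The shares of all genes called by edgeR were 0.388% in monocytes, 0.452% in neutrophils, 0.255% in cDC1, 0.283% in cDC2, 0.0479% in CD4 T cells and 0% in NK cells, so calls were rare at these cell numbers. At an unadjusted p under 0.05 there were 3 members in neutrophils, against 643 of 6853 genes, and 0 members in the other 5 classes. Log2 differences of the members ranged between -0.39 and 0.11 in monocytes, -0.66 and 0.86 in neutrophils, -0.23 and 0.57 in cDC1, -0.50 and 0.26 in cDC2, -0.36 and 0.33 in CD4 T cells and -0.40 and 0.23 in NK cells, with smallest adjusted p-values of 0.658, 0.404, 0.706, 0.755, 0.999 and 0.997 in that order. In monocytes H2-K1 stood at 1220 and 1142 CPM in JAG2KO and at 1152, 1023 and 1064 CPM in Scramble, with the groups overlapping. Shares of all genes tested stand in brackets below. Monocytes had 0 members wholly above Scramble in JAG2KO (12.8%) and 2 below, Psmb9 and Nlrc5 (11.4%). In cDC1, 1 lay above, Erap1 (10.7%), and 0 below (11.3%). In cDC2, 0 lay above (10.8%) and 1 below, H2-D1 (14.3%). CD4 T cells had 1 above, Tapbp (6.78%), and 1 below, Psmb9 (10.3%). NK cells had 2 above, Tap1 and Psmb8 (14.4%), and 1 below, Tap2 (15.2%).

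Neutrophils had H2-K1, Tap1 and Psmb9 wholly above Scramble in JAG2KO, 3 of 10 members against 13.2% of all genes, and 0 below, against 17%. H2-K1 had 790.4 and 643 CPM in JAG2KO neutrophils, against 547, 547 and 495 CPM in Scramble neutrophils. Psmb9 had 93.7 and 75.2 CPM in JAG2KO, against 46.0, 57.8 and 59.7 CPM in Scramble, on 22 to 88 UMIs per library. C1q in neutrophils was 6.69% to 13.0% of the macrophage level, and the macrophage share it implies for H2-K1 was 11.9% to 18.7%. The neutrophil gate allowed fewer than 40 C1q UMIs per 10000, against fewer than 20 for the other blood-derived classes besides macrophages. Of 15 marker lists in neutrophils, 3 lay wholly above Scramble in JAG2KO: the CD8 T cell list at 49.99 and 37.6 CPM in JAG2KO, against 14.4, 19.0 and 11.8 CPM in Scramble, the CD4 T cell list at 46.9 and 34.2 CPM in JAG2KO, against 12.6, 20.3 and 10.2 CPM in Scramble, and the NK cell list at 15.6 and 23.9 CPM in JAG2KO, against 7.22, 3.28 and 9.42 CPM in Scramble. Wholly below were 2 lists. The 6 monocyte markers stood at 284 and 318 CPM in JAG2KO neutrophils, against 374, 506 and 378 CPM in Scramble neutrophils. The 5 B cell markers stood at 0 and 0 CPM in JAG2KO, against 0.902, 0.656 and 1.57 CPM in Scramble. The part of these markers in the differences was not tested. CD8 T cells were too few in Scramble, at 7, 7 and 4 cells against 132 and 155 in JAG2KO, for a test within them.

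Neutrophils and macrophages of the same libraries differed in how the members were balanced. H2-D1 was higher in neutrophils, with 1728 and 1395 CPM in JAG2KO and 1535, 1594 and 1498 CPM in Scramble, and H2-K1 gave 31.4% and 31.5% of heavy chain UMIs in JAG2KO neutrophils and 26.3%, 25.5% and 24.9% in Scramble neutrophils, below every macrophage library. Erap1 was lower, at 9.37 and 3.42 CPM in JAG2KO neutrophils and 12.6, 8.53 and 11.0 CPM in Scramble neutrophils. The fitted differences from macrophages were 1.02 ± 0.10 for H2-D1 (adjusted p = 2.58e-14, edgeR with library as a block) and -1.44 ± 0.22 for Erap1 (adjusted p = 5.43e-08), and both calls held in 13 of 13 alternatives. For Erap1 the macrophage RNA that C1q implies was 41.6% to 74.8% of its neutrophil level, and less that RNA it stood at 4.24 and 0.861 CPM in JAG2KO neutrophils and 7.26, 3.08 and 6.41 CPM in Scramble neutrophils, so the fitted size, which includes that RNA, is uncertain.

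The direction of 6 members in neutrophils depended on the scaling. Of the 10 members, 6 were called higher and 2 lower, against 25.3% and 37.8% of all genes, and the median over all genes was -0.44 on the TMM scale. On the ratio of mean CPM, 6 members changed sign: H2-K1 (0.06 by TMM, -0.60 by CPM), B2m (0.27 and -0.37), Tap1 (0.42 and -0.25), Tapbp (0.20 and -0.45), Psmb9 (0.31 and -0.30) and Nlrc5 (0.64 and -0.00). H2-D1 was higher on both scales (1.02 and 0.36), as was Tap2 (0.53 and 0.02), and Psmb8 (-0.35 and -1.05) and Erap1 (-1.44 and -2.22) were lower on both. Calls by TMM were lost for B2m without Scramble 2 (0.26), for Tap1 without Scramble 3 (0.38), for Psmb9 without Scramble 1 (0.33) or Scramble 3 (0.29), for Nlrc5 without Scramble 2 (0.62) or Scramble 3 (0.56) and for Psmb8 without JAG2KO 1 (-0.18), and Tapbp was called without JAG2KO 1 (0.33). In tumour-like cells all 10 members were lower than in macrophages on both scales.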

How the data were processed

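Live CD45-positive cells of LLC flank tumours were sequenced in 2 JAG2KO and 3 Scramble libraries. The deposited matrices hold raw UMI counts, which the authors made with cellranger 6.0.0, per the file headers. Seurat and the build GRCm38 (mm10) are named in the submitters' processing notes, with no role given, and empty barcodes had been filtered out, per the labels.

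A barcode was kept if it had 500 or more UMIs, 250 or more genes and no more than 10% mitochondrial UMIs. Doublets were treated by removing the 8% of cells with the highest scores per library, from an implementation of the Scrublet method (30 components, 2000 genes, scikit-learn 1.9.0). Cells were gated on UMIs of marker genes, and a cell that passed several gates was left out. Tumour-like cells had at least 2 Rhox5 UMIs and fewer than 10 blood-derived UMIs per 10000. Macrophages had at least 20 blood-derived and 40 C1q UMIs per 10000 and at least 5000 UMIs in all, since the second JAG2KO library held many shallow barcodes. The UMI limits of the gates were set after marker UMIs and depths had been seen.

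UMIs were summed per class and library, and a sum needed 20 cells. Groups were compared in edgeR 4.0.16 (R 4.3.3) by quasi-likelihood, scaled by TMM and filtered with filterByExpr, over all genes, with Benjamini-Hochberg adjustment and a threshold of 0.05. Every adjusted p is from edgeR unless DESeq2 1.42.0 is named. Classes of the same libraries were compared with library as a block, and the difference between their JAG2KO effects was tested as an interaction in that fit. A sum from 1 class enters several comparisons, which therefore share samples. The tests were tried on simulated data. Exact 95% intervals hold counting error and nothing else.

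The members and gene lists were chosen with earlier results of these data known. Named are all 10 members, up to 4 genes per list and comparison by adjusted p besides Irf1, Ciita, Psmb5, Psmb6 and Psmb7, and the 10 genes most like the members over classes, except for 1 gene whose own values are not reported here. H2-T23 and H2-Q6 share end sequence with other genes. Alternatives were DESeq2, no filter on low counts, stricter limits for cells and mitochondrial UMIs, doublets kept, stricter gates, thinned sums, a replicate block, leaving out each library and, added after seeing the data, macrophages of any depth. Tumour-like cells were not compared with fibroblasts, which had at most 14 cells in a library.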

Additional observations from a re-analysis of the deposited data

Results flagged for a closer look

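In the test of whether the JAG2KO effect differed between tumour-like cells and macrophages, 2 listed genes that are not members stood out. H2-T23, a non-classical class I heavy chain, had 14.3 and 16.9 CPM in JAG2KO tumour-like cells, against 27.4, 30.3 and 22.03 CPM in Scramble tumour-like cells, and 75.5 and 90.04 CPM in JAG2KO macrophages, against 55.6, 74.3 and 64.8 CPM in Scramble macrophages. Its log2 effect in tumour-like cells differed from that in macrophages by -1.03 ± 0.19 (adjusted p = 0.0144, edgeR quasi-likelihood test), a call that held in 9 of 13 alternatives, with a range of -1.17 to -0.67, and that was lost without JAG2KO 1 (-1.01), JAG2KO 2 (-0.99) or Scramble 2 (-1.01), and with thinned sums (-0.67). The H2-T23 values are uncertain because part of its end sequence occurs in other genes.

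Gbp2, a guanylate-binding protein gene that interferon gamma induces, had 12.9 and 16.9 CPM in JAG2KO tumour-like cells, against 6.73, 16.7 and 15.0 CPM in Scramble tumour-like cells. In macrophages it had 121 and 100.2 CPM in JAG2KO, against 19.2, 54.6 and 36.0 CPM in Scramble. The log2 effect differed by -1.37 ± 0.23 (adjusted p = 0.00929, edgeR quasi-likelihood test), which held in 10 of 13 alternatives with a range of -1.61 to -0.80 and was lost without JAG2KO 1 (-0.96), with a stricter gate (-0.80) or with thinned sums (-0.80), although neither class alone passed the threshold (tumour-like cells 0.18, adjusted p = 0.76; macrophages 1.59, adjusted p = 0.0662).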

How the results depend on the processing

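Between tumour-like cells and macrophages, all 10 members kept direction and call in every alternative run. Of 193 values for members and called genes in JAG2KO tumour-like cells, 152 kept direction and side of the threshold, as did 149 of 168 in macrophages, 107 of 129 for neutrophils and 31 of 39 for the difference of effects. The members called in tumour-like cells were 3 by DESeq2 and 6 with no filter on low counts (1 in the main test), and 1 to 3 when leaving out each library, with 3 without JAG2KO 1. In macrophages they were 3 by DESeq2, 0 with macrophages of any depth, and 0 to 1 when leaving out a library. For neutrophils they were 5 with stricter gates, 4 with thinned sums and 5 to 8 when leaving out a library, with 5 without Scramble 3 (8 in the main test). For the difference of effects there was 1 with no filter, H2-K1 at 0.60 (adjusted p = 0.0076, edgeR). Directions turned for Tap2 in tumour-like cells, at -0.091 with 5% mitochondrial UMIs and between -0.28 (without JAG2KO 2) and 0.33 when leaving out a library, including -0.06 without Scramble 1 and -0.00 without Scramble 3; for Tap1, at -0.038 with thinned sums; for Psmb8, between -0.32 (without JAG2KO 2) and 1.23; and for Erap1 in macrophages, between -0.10 and 0.024 (without JAG2KO 2). The causes were not tested.

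Genes called in JAG2KO tumour-like cells numbered 928, and 1639 with no filter and 381 to 738 when leaving out a library. In macrophages they numbered 375, and 1175 by DESeq2, 1280 with no filter, 111 with any depth and 5 (without Scramble 2) to 704 (without Scramble 3) when leaving out a library. Thinned sums, which hold fewer UMIs, gave 3964 of 10326 calls for tumour-like cells against macrophages, 3782 of 8263 for neutrophils and 54 of 635 for the difference of effects, where leaving out a library gave 165 to 880. The 6 other classes had 0 to 36 genes called, and 0 to 208 over their alternatives. Tap1, Psmb9 and Nlrc5 in tumour-like cells rest on few UMIs.

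Only 2 replicate numbers are shared by the groups, and nothing says that they pair libraries. With a replicate block, members called were 1 in tumour-like cells, 3 in macrophages and 0 in monocytes, neutrophils, cDC1, cDC2 and CD4 T cells, and genes called were 963 in tumour-like cells and 1421 in macrophages. No block could be added to the fits that hold library as a block.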

Other observations

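Cells outside the blood-derived classes other than the tumour-like ones were too few for a test. Fibroblast-gated cells without Rhox5 numbered 14 and 7 in JAG2KO and 0, 3 and 3 in Scramble. H2-K1 stood at 902 and 1686 CPM in the JAG2KO fibroblast-gated cells, and at 337 and 606 CPM in those of Scramble 2 and Scramble 3. Each of these values lay above the tumour-like level of its own library. The sums fall short of the 20 cells asked of a class elsewhere. Their gate allowed fewer than 20 blood-derived UMIs per 10000, against fewer than 10 for tumour-like cells, and the part of such RNA was not tested.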
